A study of Mus musculus with 9 samples.

Results

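The transcriptional response of mouse inguinal fat to acute cold was measured across all genes in 9 RNA-seq libraries, 1 library per mouse, with both genotypes of the study pooled. Of the 9 mice in the series all 9 were used: 5 mice had been placed at 4 °C for 4 h (called cold mice) and 4 mice had been kept at room temperature (RT). The cold mice were 2 Tet1 KO mice (1781 and 1782) and 3 WT mice (1773, 1783 and 1812), and the RT mice were 2 KO mice (1786 and 1814) and 2 WT mice (1788 and 1810). The KO mice were C57BL/6 animals carrying floxed Tet1 alleles deleted by Fabp4-Cre, which is active in fat cells and, as the study notes, in macrophages, and the WT mice were floxed animals. All mice received chow. The series text speaks of 3 mice in each group, which holds here only for WT cold. Age and sex were not given in the labels. In what follows, the per-mouse values are given in the order WT 1773, 1783 and 1812 and KO 1781 and 1782 for cold, and WT 1788 and 1810 and KO 1786 and 1814 for RT.

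The housing of 2 KO mice was contradicted within the deposited labels. Mouse 1781 is named as an RT sample by its title and as a cold sample by its column of the count table, and mouse 1786 the other way round. The column names were followed. Levels are given as CPM (counts scaled to library size). With housing set by the titles no gene was called by edgeR in either direction, and 431 genes with a positive and 723 with a negative change had an unadjusted p under 0.05. With both mice left out, 244 genes were called higher and 259 lower, of which 189 and 185 were also called with all 9 mice. Where both mice fell at those genes, which they had no part in choosing, was looked at after the data were seen. At the 244 genes called higher, mouse 1781 was nearer to the mean of the other cold mice on the log2 scale at 182 and to that of the other RT mice at 62, and mouse 1786 was nearer to RT at 220 and to cold at 24. At the 259 genes called lower, mouse 1781 was nearer to cold at 200 and to RT at 59, and mouse 1786 nearer to RT at 202 and to cold at 57. Doc2b, of the lowest p among the higher genes in that fit, was at 26.2 CPM in mouse 1781, with 20.4 to 35.4 CPM in the other cold mice, and at 8.92 CPM in mouse 1786, with 5.43 to 8.06 CPM in the other RT mice. Tead1, of the next lowest p, lay between the groups in both mice, at 151 CPM in mouse 1781 and 139 CPM in mouse 1786, against 248 to 348 CPM in the other cold mice and 97.4 to 109 CPM in the other RT mice. Mfsd2a, of the third lowest p among the lower genes, was at 24.1 CPM in mouse 1781 and 29.9 CPM in mouse 1786, against 16.7 to 22.1 CPM in the other cold mice and 69.3 to 117 CPM in the other RT mice, so that mouse 1786 lay between the groups there. Of the 88 called genes named in the text by a fixed rule, 15 lost the call without both mice (highest adjusted p 0.140), namely Irs2, Cyp4b1, Slc16a5, Mlxipl, Cxcl10, Hsph1, Saa3, Ucp1, Tnf, Cxcl1, Vegfa, Esm1, Mvd, Mchr1 and Flt3. The labels give the sample as whole inguinal white adipose tissue, while the study describes fractionated inguinal adipocytes.

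In cold, sympathetic nerves release noradrenaline in fat, and beta-adrenergic receptors on fat cells raise cAMP and activate protein kinase A. In white fat this drives lipolysis, while in thermogenic (brown and beige) fat cells it also induces Ucp1, the uncoupling protein that turns the mitochondrial proton gradient into heat, together with Dio2, which activates thyroid hormone, and the coactivator Ppargc1a. Inguinal fat is the classical depot in which beige cells appear among white fat cells.

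The libraries held between 47605902 and 56292251 counts in genes, and the correlation of log2 CPM between libraries of the same genotype and housing was 0.980 to 0.988. Tet1, the targeted gene, averaged 5.73 ± 2.58 CPM in cold mice and 6.69 ± 3.85 CPM at RT (SD, n = 5 and 4), and in the KO mice it stood at 10.2, 5.30, 12.3 and 5.91 CPM (1781, 1782, 1786 and 1814), against 3.87 to 5.33 CPM in the 5 WT mice. The gene-level count therefore showed no loss of Tet1 reads in the libraries labelled KO. Reads from undeleted exons and from cells without Cre count towards it, and the labels could not be checked by it. Fat cell markers summed to 9712 to 20809.5 CPM in cold mice and 13453 to 14789.6 CPM at RT, and fibroblast and progenitor markers to 9779.7 to 14429.8 CPM in cold mice and 9567 to 11454 CPM at RT. Fat cell markers were the more abundant in every library but that of cold mouse 1781, which had 9712 CPM of fat cell and 14429.8 CPM of fibroblast and progenitor markers, the lowest and the highest sum of all 9 mice. The 4 Y-linked genes looked for had 0 counts in every library, and Xist had 15584 to 50247 counts, the pattern of female mice. Markers of macrophages (summed 541 to 986 CPM in cold mice and 412 to 1144 CPM at RT), endothelium (summed 1428 to 1932 CPM in cold mice and 1294 to 1664 CPM at RT) and mammary epithelium (summed 2039.5 to 2509.9 CPM in cold mice and 1641 to 2025 CPM at RT) were counted in every library too, and no marker list was at 0. The mammary sums did not overlap between cold and RT, and their part in the results was not tested. In such bulk samples, fewer cells of a type and less RNA per cell cannot be told apart.

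A few percent of the genes differed between cold and RT mice. Of 16745 genes tested, 276 (1.65%) were higher in cold mice than in RT mice and 305 (1.82%) were lower, together 581 genes (3.47%), at an adjusted p under 0.05 and a fold change above 1.5 in edgeR's quasi-likelihood test with genotype as a blocking term. Among the genes called higher the median fold was 1.94, with 127 genes above a fold of 2 and 23 above a fold of 4, and among those called lower the median fold was 1.78, with 96 genes above a fold of 2 and 10 above a fold of 4. The levels of all 5 cold mice lay above those of all 4 RT mice for 986 genes (5.89% of the tested) and below them for 1007 genes (6.01%), and this held for 235 of the 276 genes called higher and 257 of the 305 called lower. The median log2 fold change over all tested genes was 0.00. Nat1 was just inside the threshold (adjusted p = 0.0498, log2 fold change -1.17), and Gm38426 was just outside it (adjusted p = 0.0501, log2 fold change 0.62). Counts depended on single mice: without WT RT mouse 1810 they were 165 higher and 132 lower, without KO RT mouse 1786 they were 182 and 198, and without KO cold mouse 1782 or KO RT mouse 1814 the lower genes numbered 198 and 200. Throughout, a gene is said to have risen or fallen only where it was called in this fit. The counts of called members in the gene lists below stand beside these shares of all tested genes, 1.65% higher and 1.82% lower.

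**Figure D1:**
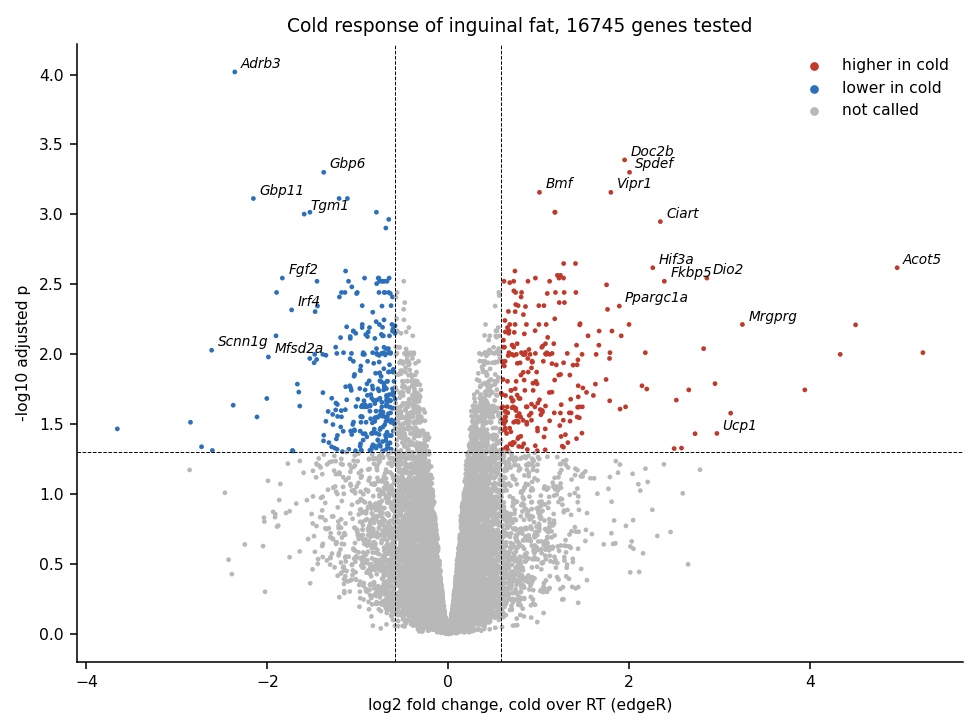
Log2 fold change of cold over RT (x axis) against the negative log10 of the adjusted p (y axis) for the 16745 genes tested, with red points for the 276 genes called higher, blue points for the 305 called lower, grey points for the rest and dashed lines at the thresholds. Adrb3 stands alone at the top on the lower side, at a log2 fold change of -2.36, and Acot5, at 4.96, is among the genes farthest to the right.

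A few genes of the adrenergic pathway changed, its receptor most. Adrb3, the beta-3 adrenergic receptor of fat cells (chr8:27225776-27250616, minus strand, mm10), was at 83.5, 95.3, 65.8, 69.9 and 71.1 CPM in cold mice, against 372, 382, 386 and 434 CPM at RT. The cold mice of both genotypes lay close together and far below the RT mice, and the groups did not overlap. For Adrb3 the log2 fold change was -2.36, with SE 0.12 and adjusted p = 9.58e-05. Rgs2, a regulator of G protein signalling that restrains signalling from heterotrimeric G proteins, fell as well and was at 74.6, 61.3, 57.7, 59.95 and 87.5 CPM in cold mice, against 167, 165, 136 and 134 CPM at RT, with every cold mouse below every RT mouse. For Rgs2 the log2 fold change was -1.14, with SE 0.14 and adjusted p = 0.00362. Adcy3, an adenylyl cyclase that makes cAMP, rose and was at 113, 92.2, 72.4, 117 and 244 CPM in cold mice, against 50.4, 41.4, 50.5 and 56.5 CPM at RT. The cold value of mouse 1782 was the highest, and all the cold mice were above the RT mice. For Adcy3 the log2 fold change was 1.35, with SE 0.24 and adjusted p = 0.0141. Pkig, which encodes the gamma inhibitor of protein kinase A, also rose, with 44.8 ± 1.00 CPM in cold mice and 29.1 ± 2.64 CPM at RT (SD, n = 5 and 4; log2 fold change 0.62, SE 0.07, adjusted p = 0.00301). The Pkig call was lost without mouse 1810 (log2 fold change as close to 0 as 0.58, within the fold of 1.5). In the list of 38 adrenergic and cAMP signalling genes, 2 were called higher and 2 lower, and the median log2 fold change was -0.08, these 4 genes being all of its calls. Adrb1 (log2 fold change -0.41), the beta-1 adrenergic receptor, did not pass the test. Outside that list, Vipr1, a receptor for vasoactive intestinal peptide that couples to cAMP (chr9:121642716-121672954, plus strand), rose and was at 90.4, 59.04, 61.8, 73.6 and 82.6 CPM in cold mice, against 20.7, 17.7, 24.7 and 22.9 CPM at RT. Here too the groups did not overlap. For Vipr1 the log2 fold change was 1.80, with SE 0.14 and adjusted p = 0.000696. Ptger3 (log2 fold change -1.16) and Hcar1 (-1.35), receptors for prostaglandin E2 and lactate that lower cAMP, both fell; these 2 genes were chosen after their values were seen.

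Thermogenic genes rose in part. Of the list of 30 thermogenic and beige fat genes, 8 were called higher and 1 lower, and the median log2 fold change was 0.20, Adrb3 being the lower one. Dio2, the type 2 deiodinase that activates thyroid hormone, was at 125, 133, 179.7, 243 and 487 CPM in cold mice, against 19.6, 10.9, 54.1 and 83.5 CPM at RT. Both groups spread widely, with KO above WT in each, yet the lowest cold mouse was above the highest RT mouse. For Dio2 the log2 fold change was 2.86, with SE 0.31 and adjusted p = 0.00286. Ppargc1a, a coactivator of mitochondrial and thermogenic genes (chr5:51454250-51567726, minus strand), was at 37.5, 28.6, 39.7, 80.8 and 125 CPM in cold mice, against 9.79, 7.97, 18.2 and 41.6 CPM at RT. The 3 WT cold mice lay above the WT RT mice but 3 cold mice lay below RT mouse 1814, so the groups overlapped when pooled. For Ppargc1a the log2 fold change was 1.89, with SE 0.25 and adjusted p = 0.00453. Gk, glycerol kinase, which lets fat cells reuse glycerol, was at 40.8, 33.4, 53.9, 121 and 182 CPM in cold mice, against 14.8, 13.5, 26.2 and 52.2 CPM at RT, with 2 of the WT cold mice below RT mouse 1814. For Gk the log2 fold change was 1.76, with SE 0.23 and adjusted p = 0.00479.

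Ucp1 was the most variable of these genes, at 168, 147, 213, 1062 and 1483 CPM in cold mice, against 14.5, 3.15, 261 and 623 CPM at RT. The WT cold mice were below both KO RT mice, and the call (log2 fold change 2.97, SE 0.71, adjusted p = 0.0369) was lost, one mouse at a time, without any one of mice 1773, 1783, 1812, 1782, 1788, 1810 or 1786 (adjusted p up to 0.114); without mice 1781 and 1786 the adjusted p was 0.0741. Elovl3, a fatty acid elongase of brown fat, was at 3.46, 3.33, 3.67, 14.6 and 14.9 CPM in cold mice, against 0.936, 1.85, 1.01 and 3.59 CPM at RT, with the 2 KO cold mice far above the other cold mice and overlap only at RT mouse 1814 (log2 fold change 1.96, SE 0.41, adjusted p = 0.0238). The Elovl3 call was lost without any one of mice 1782, 1788 or 1814 (adjusted p up to 0.0611). Elovl3 overlaps Pitx3 in the annotation, as Adrb3, Doc2b, Gbp6 and Elovl6 overlap unnamed genes, and without a stated strand setting their reads cannot be told apart. Of 7 markers of brown and beige fat cells, Ucp1, Dio2 and Elovl3 were the 3 called. Cited1 (log2 fold change 1.48), Slc27a2 (1.38) and Clstn3 (1.03), the remaining members called, rose too. By contrast, Cidea, a lipid droplet protein of thermogenic fat, averaged 63.3 ± 56.6 CPM in cold mice and 63.04 ± 52.2 CPM at RT (SD, n = 5 and 4; log2 fold change 0.08, SE 0.21, adjusted p = 0.850). Prdm16 (log2 fold change -0.15), Cox8b (-0.15) and Cox7a1 (0.20), further thermogenic markers, did not pass either.

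**Figure D2:**
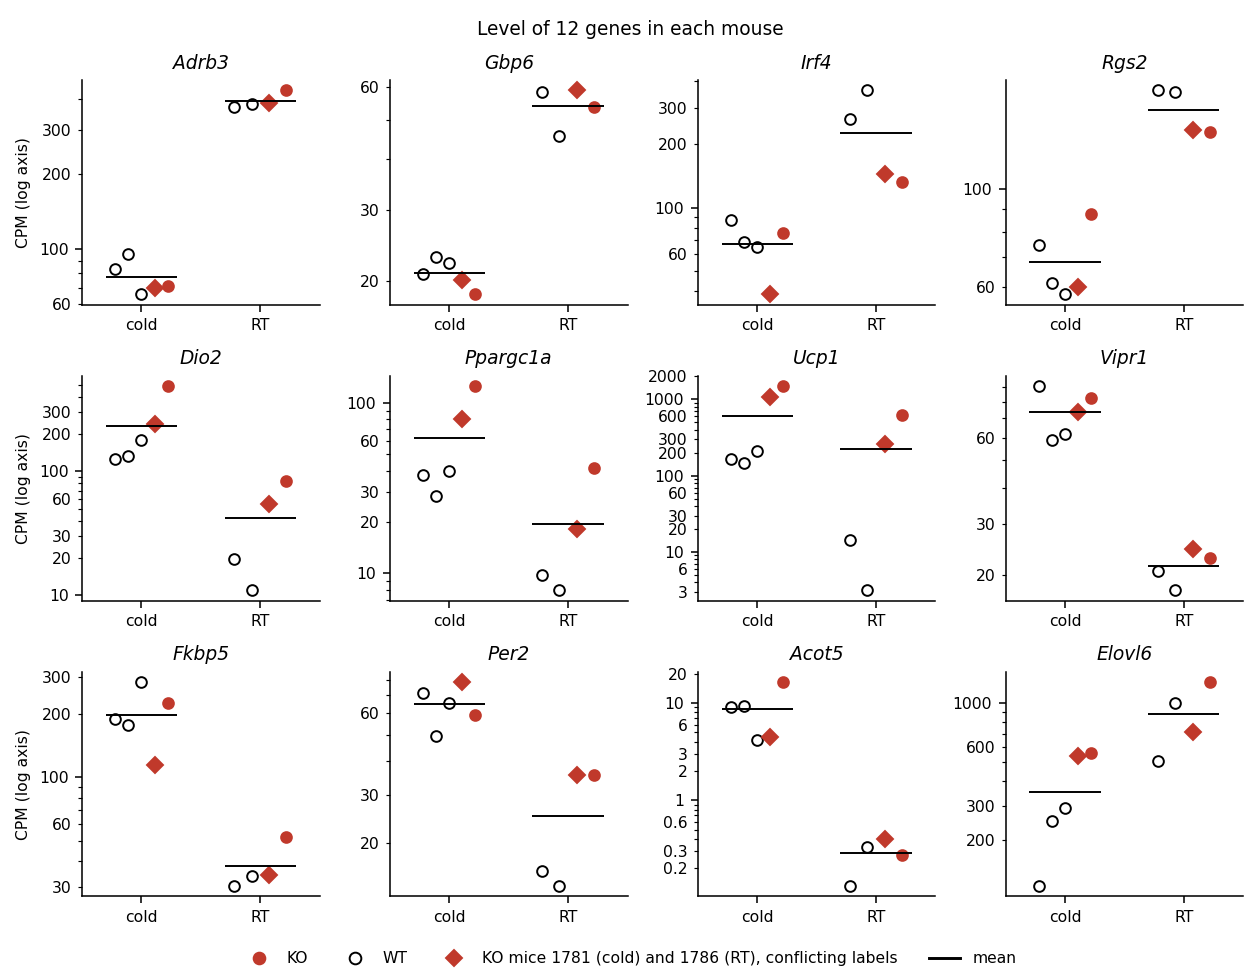
CPM on log axes of 12 genes in each mouse, cold to the left of RT, with filled symbols for KO, open symbols for WT, diamonds for the KO mice 1781 (cold) and 1786 (RT) whose labels conflict, and bars for the means. Adrb3, Gbp6, Irf4, Rgs2, Dio2, Vipr1, Fkbp5, Per2 and Acot5 show no overlap between housings, while Ppargc1a, Ucp1 and Elovl6 do.

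The promoter of Dio2 is shown because it carries the full cAMP response element, the binding site of CREB. The letters TGACGTCA, in capitals, occur in the 300 bases around the RefSeq start of Dio2 (GRCm38.p6, chr12:90738989-90739288, minus strand), printed 5′ to 3′ and running from 250 bases before to 50 after the start.
Dio2: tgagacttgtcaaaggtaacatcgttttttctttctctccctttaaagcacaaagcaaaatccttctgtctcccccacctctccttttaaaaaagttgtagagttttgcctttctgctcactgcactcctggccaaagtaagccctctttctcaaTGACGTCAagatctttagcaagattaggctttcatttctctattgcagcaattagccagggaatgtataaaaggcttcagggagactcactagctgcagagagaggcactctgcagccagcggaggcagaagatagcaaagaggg
TGACGTCA, which reads the same on both strands, was found in 3.28% of the 12588 tested genes that had such a promoter window, and in 4 of 202 genes called higher (1.98%) and 5 of 212 called lower (2.36%). The match in Dio2 is a description of its letters.

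Some genes that handle acyl-CoA, known targets of the PPAR nuclear receptors that sense fatty acids, rose. Acot5, a peroxisomal acyl-CoA thioesterase (chr12:84069325-84076020, plus strand), had the largest fitted change among called genes with a mean of at least 1 CPM and an assigned name, at 9.01, 9.31, 4.17, 4.48 and 16.3 CPM in cold mice, against 0.131, 0.334, 0.401 and 0.276 CPM at RT. It was nearly absent at RT and reached its highest level in cold mouse 1782, without overlap. For Acot5 the log2 fold change was 4.96, with SE 0.51 and adjusted p = 0.00241. Acot1, the cytosolic thioesterase, averaged 81.97 ± 27.2 CPM in cold mice and 29.4 ± 4.82 CPM at RT (log2 fold change 1.48, SE 0.24, adjusted p = 0.0100), and Acot4, a peroxisomal one, 11.5 ± 3.71 CPM in cold mice and 4.88 ± 1.32 CPM at RT (log2 fold change 1.24, SE 0.27, adjusted p = 0.0264). The Acot4 call was lost without any one of mice 1773, 1783, 1782, 1788, 1810 or 1786 (adjusted p up to 0.0716). Cyp4b1, a cytochrome P450 that oxidises fatty acids, averaged 111 ± 22.1 CPM in cold mice and 64.04 ± 11.6 CPM at RT (log2 fold change 0.78, SE 0.16, adjusted p = 0.0207). The Cyp4b1 call was lost without any one of mice 1782, 1810 or 1786 (adjusted p up to 0.0733). All of these means are with SD over 5 cold and 4 RT mice.

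Of the list of 20 PPAR targets, 4 were called higher and 0 lower, and the median log2 fold change was 0.18, and of 12 tested acyl-CoA thioesterases, a family taken whole after its values were seen, 4 (Acot1, Acot4, Acot5 and Acot6) were called higher and 0 lower. The 4 lie close together on chromosome 12, and reads that fit more than 1 of them were dropped in the authors' alignment. Among 27 genes of fatty acid oxidation 1 was called higher, beside 1.65% of all tested genes, and the median log2 fold change was 0.05. Among 22 genes of lipolysis and lipid droplets 1 was called higher, again beside 1.65%. It was Gpihbp1, which carries lipoprotein lipase to the capillary wall, with 231 ± 29.1 CPM in cold mice and 129.6 ± 22.9 CPM at RT. For Gpihbp1 the log2 fold change was 0.83, with SE 0.14 and adjusted p = 0.0100. Pnpla2, the lipase that starts lipolysis, did not pass, with 2453 ± 676 CPM in cold mice and 2364 ± 101 CPM at RT (log2 fold change 0.05).

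Lipogenic genes lay lower in cold, mostly short of the threshold. In the list of 24 lipogenesis genes, 0 were called higher and 2 lower, and the median log2 fold change was -0.59, with 20 members negative, beside a median of 0.00 over all tested genes. Elovl6, which elongates palmitate, was at 116, 249, 292, 537 and 558 CPM in cold mice, against 508, 1007, 713 and 1281 CPM at RT. Mouse 1773 was the lowest, and the 2 KO cold mice lay above WT RT mouse 1788. For Elovl6 the log2 fold change was -1.38, with SE 0.33 and adjusted p = 0.0380. The call of Elovl6 was lost without any one of mice 1783, 1812, 1781, 1782, 1788, 1810 or 1814 (adjusted p up to 0.117). Mlxipl, the glucose-sensing transcription factor ChREBP, was at 56.3, 70.2, 80.05, 72.4 and 78.03 CPM in cold mice, against 83.98, 196, 137 and 226 CPM at RT, with the RT mice widely spread but all above the cold mice (log2 fold change -1.14, SE 0.24, adjusted p = 0.0250). The Mlxipl call was lost without any one of mice 1773, 1783, 1781, 1782, 1810 or 1814 (adjusted p up to 0.107). Fasn, Acly and Scd1, the abundant enzymes of fatty acid synthesis and desaturation, had log2 fold changes of -0.97, -1.27 and -0.85 and adjusted p of 0.0765, 0.0903 and 0.138, and did not pass.

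Some genes of a mixed list of insulin signalling and targets of FOXO transcription factors fell. Of its 27 genes, 0 were called higher and 5 lower, and the median log2 fold change was -0.09. Irs2, an adaptor of the insulin receptor, was at 192, 189, 187, 165 and 232 CPM in cold mice, against 304, 322, 352 and 252 CPM at RT, with no overlap. For Irs2 the log2 fold change was -0.67, with SE 0.12 and adjusted p = 0.0156. Its companion adaptor Irs1 was at 106, 91.9, 98.4, 77.5 and 104 CPM in cold mice, against 131, 234, 151 and 161 CPM at RT, again with every cold mouse below every RT mouse. For Irs1 the log2 fold change was -0.84, with SE 0.16 and adjusted p = 0.0169. The growth factor Igf1 averaged 144 ± 35.3 CPM in cold mice and 260.4 ± 54.1 CPM at RT (log2 fold change -0.90, SE 0.17, adjusted p = 0.0163), its binding protein Igfbp5 628 ± 82.5 CPM in cold mice and 1204 ± 269.9 CPM at RT (log2 fold change -0.94, SE 0.15, adjusted p = 0.00976), and the transcriptional coregulator Cited2 64.2 ± 1.95 CPM in cold mice and 106 ± 14.6 CPM at RT (log2 fold change -0.73, SE 0.08, adjusted p = 0.00301; SD, n = 5 and 4 for each). Without mouse 1810 the calls of Irs2 and Igf1 were lost (adjusted p up to 0.0587 and 0.0646), and without both mice 1781 and 1786 Irs2 was within the fold of 1.5 (log2 fold change -0.55). Pik3ip1, an inhibitor of PI3 kinase, which carries the insulin signal onward, rose and was at 25.02, 21.7, 22.1, 29.3 and 29.01 CPM in cold mice, against 11.4, 7.28, 8.92 and 11.1 CPM at RT. For Pik3ip1 the log2 fold change was 1.41, with SE 0.14 and adjusted p = 0.00225. Of 21 tested genes of mTOR, autophagy and energy sensing 1 was called, beside 3.47% of all tested genes. This was Prkag2, a regulatory subunit of the energy sensor AMPK, which fell with 37.2 ± 3.49 CPM in cold mice and 57.9 ± 10.5 CPM at RT (log2 fold change -0.65, SE 0.12, adjusted p = 0.0134). The Prkag2 call was lost without mouse 1810 (log2 fold change as close to 0 as -0.51, within the fold of 1.5).

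Among glucocorticoid-responsive genes, several widely used as readouts of the adrenal hormone rose. Fkbp5, a chaperone of the glucocorticoid receptor (chr17:28399094-28517527, minus strand), was at 189, 177, 283, 115 and 225 CPM in cold mice, against 30.3, 34.1, 34.4 and 52.2 CPM at RT. Mouse 1781 was the lowest cold mouse and was still above every RT mouse. For Fkbp5 the log2 fold change was 2.39, with SE 0.28 and adjusted p = 0.00301. Hif3a, a member of the hypoxia-inducible factor family, was at 7.36, 4.81, 5.93, 6.00 and 6.02 CPM in cold mice, against 1.22, 0.787, 1.36 and 1.85 CPM at RT, without overlap. For Hif3a the log2 fold change was 2.26, with SE 0.23 and adjusted p = 0.00241. Fam107a averaged 26.6 ± 4.81 CPM in cold mice and 7.82 ± 2.14 CPM at RT (SD, n = 5 and 4; log2 fold change 1.75, SE 0.21, adjusted p = 0.00319). Tsc22d3, the glucocorticoid-induced leucine zipper, was at 149, 165, 236.4, 148 and 204 CPM in cold mice, against 107, 72.3, 88.2 and 98.6 CPM at RT. For Tsc22d3 the log2 fold change was 0.98, with SE 0.17 and adjusted p = 0.0134. These were the 4 of 27 listed genes called, all higher, beside a list median of 0.13. Other listed genes, such as Per1 (log2 fold change 0.11), Sgk1 (0.13) and Pdk4 (-0.49), did not pass. Hif3a was also the only call among 17 hypoxia-responsive genes.

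Clock genes changed in both directions. Of 19 clock genes, 5 were called higher (Ciart, Per2, Tef, Dbp and Nr1d2) and 4 lower, among them Npas2, Arntl and Nfil3. On the repressor side, Per2 was at 71.1, 49.6, 65.6, 78.2 and 59.2 CPM in cold mice, against 15.7, 13.8, 35.5 and 35.6 CPM at RT, and Ciart, a repressor of the CLOCK and BMAL1 activators, at 4.88, 6.05, 4.82, 7.44 and 11.02 CPM in cold mice, against 1.18, 0.846, 1.39 and 2.31 CPM at RT. Both were higher in every cold mouse (log2 fold change 1.55, SE 0.23, adjusted p = 0.00740 for Per2 and log2 fold change 2.35, SE 0.22, adjusted p = 0.00113 for Ciart). Tef, a clock-controlled transcription factor of the PAR bZIP family, was at 169, 183, 208, 186 and 233 CPM in cold mice, against 78.4, 55.1, 105 and 136 CPM at RT, with no overlap (log2 fold change 1.17, SE 0.18, adjusted p = 0.00842), while its relative Dbp overlapped at RT mouse 1814. For Dbp the log2 fold change was 1.48, with SE 0.31 and adjusted p = 0.0238. On the activator side, Arntl, which encodes BMAL1, was at 13.7, 13.01, 14.9, 13.8 and 18.00 CPM in cold mice, against 27.5, 30.9, 23.4 and 18.2 CPM at RT. KO mice 1782 and 1814 were almost level, the other mice well apart. For Arntl the log2 fold change was -0.77, with SE 0.15 and adjusted p = 0.0210. Npas2, an alternative partner of BMAL1, averaged 7.03 ± 1.93 CPM in cold mice and 14.5 ± 4.55 CPM at RT (SD, n = 5 and 4; log2 fold change -1.08, SE 0.16, adjusted p = 0.00772). Nfil3 (log2 fold change -0.92), which represses the sites that Dbp and Tef activate, fell. Per1 (0.11), Clock (0.07) and Nr1d1 (0.04) did not pass. The sources do not state the hour at which the tissue was taken. Housing and hour of collection therefore cannot be told apart, for the clock genes or for any other gene described here.

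Promoters of 1 gene from each arm of the clock are shown for comparison, with the E-box CACGTG of CLOCK and BMAL1 in capitals in Ciart, which rose, and the ROR and REV-ERB core TAGGTCA in capitals in Arntl, which fell (GRCm38.p6; Ciart chr3:95882179-95882478, minus strand; Arntl chr7:113207261-113207560, plus strand; each from 250 bases before to 50 after the RefSeq start, 5′ to 3′).
Ciart: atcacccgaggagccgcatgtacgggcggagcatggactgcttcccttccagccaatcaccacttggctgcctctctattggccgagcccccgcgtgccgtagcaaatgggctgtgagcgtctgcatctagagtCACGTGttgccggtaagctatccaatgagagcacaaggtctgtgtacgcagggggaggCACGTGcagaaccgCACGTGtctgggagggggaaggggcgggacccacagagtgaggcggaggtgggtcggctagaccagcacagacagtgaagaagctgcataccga
Arntl: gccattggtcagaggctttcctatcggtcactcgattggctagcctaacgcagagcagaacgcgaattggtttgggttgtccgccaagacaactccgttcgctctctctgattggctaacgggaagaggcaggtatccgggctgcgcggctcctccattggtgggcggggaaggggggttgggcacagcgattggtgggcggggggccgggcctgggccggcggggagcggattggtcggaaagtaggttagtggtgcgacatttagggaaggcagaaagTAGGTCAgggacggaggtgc
The Ciart window held 3 matches and the Arntl window 1. Both strands were searched, and the letters of these motifs do not overlap in either window. CACGTG was found in 10.8% of the 12588 promoter windows, in 21 of 202 genes called higher (10.4%) and in 23 of 212 called lower (10.8%). TAGGTCA was found in 2.34% of all windows, in 5 of the 202 (2.48%) and in 8 of the 212 (3.77%).

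Interferon-inducible genes lay lower in cold. Gbp6, a guanylate-binding protein of the interferon response (chr5:105270702-105293698, minus strand), was at 20.9, 22.95, 22.1, 20.2 and 18.5 CPM in cold mice, against 58.3, 45.4, 58.96 and 53.7 CPM at RT. The cold mice were tightly grouped at well under the lowest RT level. For Gbp6 the log2 fold change was -1.38, with SE 0.10 and adjusted p = 0.000500. Gbp11 was at 2.03, 1.35, 1.30, 2.08 and 1.91 CPM in cold mice, against 7.13, 8.65, 7.61 and 7.71 CPM at RT (log2 fold change -2.15, SE 0.17, adjusted p = 0.000770), and Gbp10 at 3.77, 4.62, 2.83, 2.16 and 2.11 CPM in cold mice, against 13.6, 6.88, 13.8 and 9.74 CPM at RT (log2 fold change -1.90, SE 0.28, adjusted p = 0.00740), again without overlap for either. These genes are neighbours on chromosome 5 with similar sequences, and reads that fit more than 1 of them were dropped. Taken as a whole family after its values were seen, 22 interferon-inducible GTPases had 11 members called lower and 0 higher, all 22 had a negative change, and the median log2 fold change was -0.71. Iigp1 (log2 fold change -0.97), Irgm2 (-0.82), Igtp (-0.76) and Gbp5 (-0.87) were among those that fell. In the list of 21 interferon-stimulated genes, 0 were called higher and 1 lower, and the median log2 fold change was -0.36, with all 21 negative. Its called member, Ifit1, which binds foreign RNA, was at 17.7, 18.7, 23.00, 22.1 and 14.1 CPM in cold mice, against 43.9, 31.1, 22.5 and 38.02 CPM at RT (log2 fold change -0.84, SE 0.19, adjusted p = 0.0310), with overlap between the groups. The Ifit1 call was lost without any one of mice 1773, 1783, 1782, 1788, 1810 or 1814 (adjusted p up to 0.0919).

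Some cytokine genes fell too. Of 25 genes, 0 were called higher and 4 lower, and the median log2 fold change was -0.40. Cxcl10, a chemokine induced by interferon, was at 121, 60.5, 55.3, 57.98 and 61.3 CPM in cold mice, against 116, 193, 180.3 and 143 CPM at RT (log2 fold change -1.18, SE 0.25, adjusted p = 0.0254), with cold mouse 1773 well above the other cold mice. Tnf averaged 17.99 ± 4.83 CPM in cold mice and 29.6 ± 8.46 CPM at RT (log2 fold change -0.76, SE 0.18, adjusted p = 0.0375), the neutrophil chemokine Cxcl1 122 ± 33.9 CPM in cold mice and 205 ± 41.5 CPM at RT (log2 fold change -0.78, SE 0.19, adjusted p = 0.0410), and the acute phase gene Saa3 1.00 ± 0.229 CPM in cold mice and 2.30 ± 0.768 CPM at RT (log2 fold change -1.19, SE 0.28, adjusted p = 0.0332; SD, n = 5 and 4). The call of Cxcl10 was lost without any one of mice 1783, 1781, 1782, 1810, 1786 or 1814 (adjusted p up to 0.0993). The Saa3 call was lost without any one of mice 1773, 1812, 1782, 1788, 1810 or 1786 (adjusted p up to 0.117). The Tnf call was lost without any one of mice 1783, 1812, 1781, 1782, 1810, 1786 or 1814 (adjusted p up to 0.148). The Cxcl1 call was lost without any one of mice 1783, 1812, 1781, 1782, 1810, 1786 or 1814 (adjusted p up to 0.155). Macrophage markers, whose summed levels were 541 to 986 CPM in cold mice and 412 to 1144 CPM at RT, had a median log2 fold change of 0.05 with none of 11 called, and their part in these changes was not tested.

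The promoter of Gbp5 is printed because it belongs to the genes of this family that fell and holds the core of the interferon response element, a pair of TTTC runs with any 2 bases between them, in capitals (GRCm38.p6, chr3:142496684-142496983, plus strand, same window, 5′ to 3′).
Gbp5: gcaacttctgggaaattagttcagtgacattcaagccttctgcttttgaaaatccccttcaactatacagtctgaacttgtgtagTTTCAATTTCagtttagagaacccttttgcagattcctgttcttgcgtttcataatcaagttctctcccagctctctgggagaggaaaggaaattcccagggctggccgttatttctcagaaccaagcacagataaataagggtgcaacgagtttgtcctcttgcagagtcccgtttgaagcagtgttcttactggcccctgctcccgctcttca
With both strands searched, this core was found in 3.88% of the 12588 promoter windows, in 5 of 202 genes called higher (2.48%) and in 14 of 212 called lower (6.60%), the lower ones including Cxcl10, Ifit1, Igtp and Irgm2.

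Some signals to blood vessels and matrix genes changed. Of 20 angiogenic genes, 1 was called higher and 4 lower, and the median log2 fold change was -0.19. Vegfa, the main endothelial growth factor, was at 272, 215, 174, 177 and 265 CPM in cold mice, against 311, 437, 360.4 and 309 CPM at RT, with all cold mice below all RT mice (log2 fold change -0.69, SE 0.17, adjusted p = 0.0415). The Vegfa call was lost without any one of mice 1783, 1812, 1781, 1788, 1810, 1786 or 1814 (adjusted p up to 0.150). Angpt1, the ligand that stabilises vessels through Tek, was at 13.8, 14.1, 19.3, 13.4 and 14.7 CPM in cold mice, against 29.96, 30.3, 36.5 and 28.9 CPM at RT. For Angpt1 the log2 fold change was -1.07, with SE 0.13 and adjusted p = 0.00330. Esm1, an endothelial proteoglycan, averaged 0.733 ± 0.267 CPM in cold mice and 1.83 ± 0.551 CPM at RT (log2 fold change -1.32, SE 0.33, adjusted p = 0.0429). The Esm1 call was lost without any one of mice 1773, 1783, 1812, 1782, 1810, 1786 or 1814 (adjusted p up to 0.165). Vegfc, the lymphatic growth factor, also fell (log2 fold change -0.67). Pgf, placental growth factor, was the member that rose, with 10.9 ± 2.07 CPM in cold mice and 5.92 ± 0.507 CPM at RT. For Pgf the log2 fold change was 0.88, with SE 0.16 and adjusted p = 0.0134. Fgf2, which overlaps Nudt6 in the annotation, fell and was at 1.23, 1.62, 1.49, 1.62 and 1.61 CPM in cold mice, against 4.89, 6.39, 6.64 and 3.73 CPM at RT. For Fgf2 the log2 fold change was -1.83, with SE 0.20 and adjusted p = 0.00286.

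Among 26 matrix genes, Timp3, an inhibitor of metalloproteinases, rose with 1036 ± 175 CPM in cold mice and 558 ± 77.9 CPM at RT (log2 fold change 0.91, SE 0.15, adjusted p = 0.0100), Lox, which crosslinks collagen, rose with 131 ± 25.3 CPM in cold mice and 81.9 ± 8.84 CPM at RT (log2 fold change 0.69, SE 0.13, adjusted p = 0.0182), and Adamts4, a protease of matrix proteoglycans, fell with 70.2 ± 19.5 CPM in cold mice and 133 ± 24.1 CPM at RT (log2 fold change -0.89, SE 0.18, adjusted p = 0.0197; SD, n = 5 and 4 for each). The call of Lox was lost without either of mice 1788 and 1814 (adjusted p up to 0.0554). The Adamts4 call was lost without either of mice 1810 and 1786 (adjusted p up to 0.0722). Endothelial markers did not pass in any of 8 cases, with Pecam1 at 385 ± 68.2 CPM in cold mice and 329 ± 52.4 CPM at RT and Cdh5 at 416 ± 89.2 CPM in cold mice and 409.6 ± 54.1 CPM at RT.

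The RNA-binding proteins Rbm3 and Cirbp, known to respond to cooling, rose. Rbm3, the cold-inducible RNA-binding motif protein, was at 123, 119, 142, 123 and 119 CPM in cold mice, against 69.6, 83.7, 86.96 and 89.1 CPM at RT, and Cirbp at 39.3, 34.2, 30.4, 40.4 and 42.8 CPM in cold mice, against 23.6, 24.1, 23.3 and 19.7 CPM at RT. In both, every cold mouse was above every RT mouse (log2 fold change 0.61, SE 0.09, adjusted p = 0.00794 for Rbm3 and log2 fold change 0.72, SE 0.11, adjusted p = 0.00891 for Cirbp). The Rbm3 call was lost without either of mice 1812 and 1788 (log2 fold change as close to 0 as 0.52, within the fold of 1.5). These were the only calls among 17 such genes.

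Of 25 heat shock genes 1 was called, beside 3.47% of all tested genes. It was Hsph1, a large chaperone of the HSP70 family, which fell, at 40.6, 36.6, 43.3, 36.3 and 33.4 CPM in cold mice, against 51.3, 69.5, 66.01 and 119 CPM at RT (log2 fold change -0.96, SE 0.21, adjusted p = 0.0279). The Hsph1 call was lost without any one of mice 1773, 1783, 1781, 1782 or 1810 (adjusted p up to 0.0872). Xbp1, a transcription factor of the unfolded protein response, fell with 199 ± 28.4 CPM in cold mice and 318 ± 55.8 CPM at RT (log2 fold change -0.71, SE 0.09, adjusted p = 0.00362), while Mthfd2 rose with 12.8 ± 2.59 CPM in cold mice and 6.56 ± 0.516 CPM at RT (log2 fold change 0.96, SE 0.16, adjusted p = 0.00988). Xbp1 and Mthfd2 were the only 2 calls in a list of 26 genes of the unfolded protein response and targets of the transcription factor ATF4. Mthfd2 and Mthfd1l are mitochondrial enzymes of folate metabolism, and among 13 one-carbon genes, listed after their values were seen, they were the 2 called higher, while Psph, an enzyme of serine synthesis, fell (log2 fold change -0.63). Mthfd1l was at 10.1, 9.96, 10.1, 9.25 and 7.06 CPM in cold mice, against 4.79, 3.66, 3.35 and 3.21 CPM at RT, with no overlap. For Mthfd1l the log2 fold change was 1.28, with SE 0.13 and adjusted p = 0.00225. Amd1, which makes the aminopropyl donor for polyamines, was at 167, 144, 134, 169.8 and 163 CPM in cold mice, against 78.1, 70.2, 61.4 and 64.9 CPM at RT. For Amd1 the log2 fold change was 1.18, with SE 0.10 and adjusted p = 0.000966. Amd2 had the same counts in every library, so that the 2 entries are 1 measurement. Amd1 was the only call among 12 polyamine genes.

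Other genes of low p had varied roles. Among those that rose were Doc2b, a calcium sensor of vesicle fusion (chr11:75768966-75796049, minus strand), at 26.4, 20.4, 24.8, 26.2 and 35.4 CPM in cold mice, against 6.25, 5.43, 8.92 and 8.06 CPM at RT (log2 fold change 1.95, SE 0.13, adjusted p = 0.000408), and Spdef, an ETS transcription factor of secretory epithelium, at 15.6, 14.1, 15.5, 16.5 and 17.8 CPM in cold mice, against 3.30, 2.95, 4.58 and 5.91 CPM at RT. For Spdef the log2 fold change was 2.01, with SE 0.14 and adjusted p = 0.000500. Neither gene overlapped between the groups. Bmf, a pro-apoptotic BH3-only protein, averaged 37.5 ± 4.87 CPM in cold mice and 18.9 ± 1.60 CPM at RT (log2 fold change 1.01, SE 0.08, adjusted p = 0.000696), and the glutamine transporter Slc38a1 65.9 ± 5.45 CPM in cold mice and 33.8 ± 4.49 CPM at RT. For Slc38a1 the log2 fold change was 0.96, with SE 0.10 and adjusted p = 0.00286. Galnt15 (log2 fold change 1.21, SE 0.13), an enzyme of O-linked glycosylation, Spock2 (log2 fold change 1.24, SE 0.13), a matrix proteoglycan, and Lpin3 (log2 fold change 0.74, SE 0.08), a phosphatidate phosphatase, were higher in all cold mice than in all RT mice. Id1 (log2 fold change 0.87, SE 0.12), an inhibitor of bHLH transcription factors, rose too. The receptors Mrgprg (log2 fold change 3.25, SE 0.45) and Mchr1 (log2 fold change 2.50, SE 0.64) rose and were low at RT. Mrgprg had 18.9 CPM in cold mouse 1781 and 1.53 to 6.28 CPM in the other cold mice. The call of Mchr1 was lost without any one of mice 1773, 1783, 1812, 1781, 1782, 1788, 1810 or 1786 (adjusted p up to 0.144). Ucp2, a mitochondrial carrier chosen after its values were seen, rose and was at 596, 582, 427, 596 and 567 CPM in cold mice, against 297, 238, 243 and 240.3 CPM at RT. For Ucp2 the log2 fold change was 1.12, with SE 0.13 and adjusted p = 0.00301. The 2 remaining genes of largest rise had no assigned gene name.

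Among the genes that fell, Irf4, an interferon regulatory factor that also acts with PGC-1 alpha in thermogenic fat (chr13:30749226-30766976, plus strand), was at 87.4, 68.5, 64.6, 38.6 and 75.4 CPM in cold mice, against 266, 362, 144 and 133 CPM at RT. The WT RT mice were the highest, and the groups did not overlap. For Irf4 the log2 fold change was -1.73, with SE 0.23 and adjusted p = 0.00483. Mfsd2a, a transporter of lysophosphatidylcholine, was at 17.5, 16.7, 19.9, 24.1 and 22.1 CPM in cold mice, against 102, 69.3, 29.9 and 117 CPM at RT, with RT mouse 1786 lowest of the RT mice and still above the cold mice. For Mfsd2a the log2 fold change was -1.99, with SE 0.33 and adjusted p = 0.0105. Tgm1, a protein-crosslinking transglutaminase, was at 13.9, 14.5, 16.4, 13.03 and 13.5 CPM in cold mice, against 45.8, 44.8, 28.97 and 50.2 CPM at RT. For Tgm1 the log2 fold change was -1.59, with SE 0.14 and adjusted p = 0.000996. Ccdc69 (log2 fold change -1.11, SE 0.09), Tppp (log2 fold change -1.21, SE 0.10), a tubulin polymerisation factor, Vgll4 (log2 fold change -0.79, SE 0.07), a cofactor of TEAD transcription factors, Syne1 (log2 fold change -0.66, SE 0.06), a nuclear envelope protein, Lrig1 (log2 fold change -0.69, SE 0.06), a brake on growth factor receptors, Sox6 (log2 fold change -1.14, SE 0.12), a transcription factor, Tmprss13 (log2 fold change -0.77, SE 0.08), a membrane serine protease, and Trim68 (log2 fold change -0.77, SE 0.09), a ubiquitin ligase, were each lower in all 5 cold mice than in all 4 RT mice. Irf4, Id1 and Thrb were the calls (1 higher and 2 lower) among 29 adipose transcription factors. Thrb, the beta receptor for the thyroid hormone that Dio2 activates, fell with 16.5 ± 1.51 CPM in cold mice and 28.2 ± 2.76 CPM at RT (SD, n = 5 and 4; log2 fold change -0.77, SE 0.09, adjusted p = 0.00362). At levels of a few CPM, Scnn1g (log2 fold change -2.62, SE 0.41), a subunit of the epithelial sodium channel, Slc16a5 (log2 fold change -2.38, SE 0.49), of the monocarboxylate transporter family, Zfp872 (log2 fold change -1.90, SE 0.24) and Baiap2l2 (log2 fold change -1.67, SE 0.31) were among the 10 largest falls. The call of Slc16a5 was lost without any one of mice 1773, 1781, 1782 or 1814 (adjusted p up to 0.0631). The Baiap2l2 call was lost without mouse 1810 (adjusted p up to 0.0568). A further 2 of the 15 genes of lowest p that fell had no assigned gene name.

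**Figure D3:**
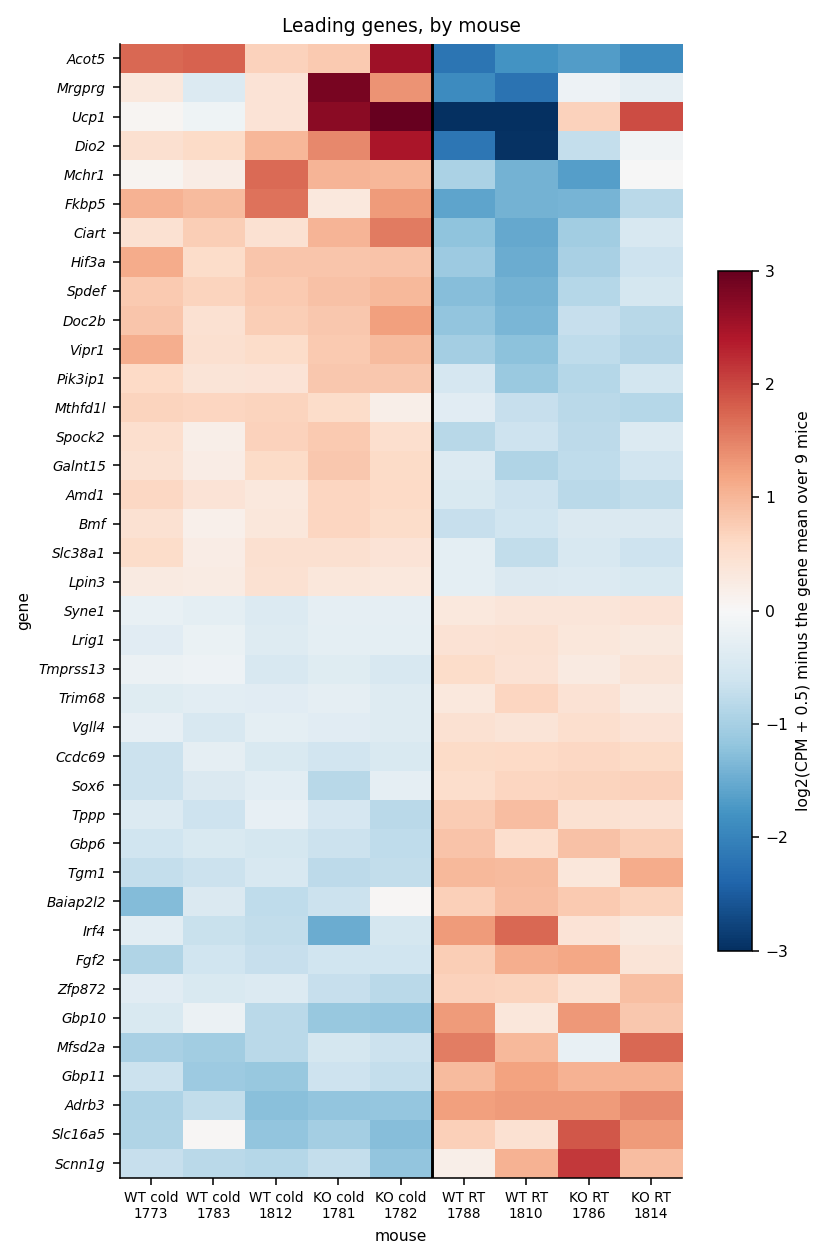
Colours give log2(CPM + 0.5) of the 39 leading genes (rows) in each of the 9 mice (columns) minus the mean of the gene over the mice, with cold mice left of the black line and RT mice right of it and colours capped at 3 in either direction. Rows run from Acot5 to Scnn1g by fold change and were picked for low p or large change. Most genes are uniform within each housing, whereas some, among them Ucp1, Dio2 and, at RT, Irf4, also differ between the genotypes.

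Many programmes had no called member. None of 26 immediate early genes was called, with Fos at 3046 ± 364 CPM in cold mice and 2864 ± 301 CPM at RT and Zfp36 at 1883 ± 187 CPM in cold mice and 2351 ± 212 CPM at RT (log2 fold change 0.08 and -0.32), and the median was -0.08. Of 44 respiratory chain subunits none was called and the median was -0.0037, with Atp5b at -0.03 and Atp5a1 at 0.00. In the tricarboxylic acid cycle (19 genes, Pcx -0.44), glycolysis and glucose uptake (27 genes, Aldoa -0.07, Gapdh -0.05), branched-chain amino acid breakdown (20 genes, Aldh6a1 -0.13, Hibadh -0.05), secreted adipose factors (24 genes, Cfd -0.33, Sparc 0.15), metallothioneins and oxidative stress (19 genes, Gpx3 0.14, Cat 0.25) and cell division (22 genes, Pcna 0.08, Mki67 0.29) no gene passed, where the values are log2 fold changes. Of the 22 cell division genes, 21 had a positive change, with a median log2 fold change of 0.35. That median was 0.78 in the WT mice alone and 0.0073 in the KO mice alone. Cholesterol synthesis had 1 call of 23, beside 3.47% of all tested genes. It was Mvd, at 6.92 ± 1.38 CPM in cold mice and 11.5 ± 2.33 CPM at RT (log2 fold change -0.75, SE 0.19, adjusted p = 0.0455). The Mvd call was lost without any one of mice 1773, 1783, 1781, 1782, 1810, 1786 or 1814 (adjusted p up to 0.175). The DNA methylation and histone deacetylase list (20 genes, Hdac1 0.15) had none, and Tet1 (-0.09, SE 0.26), Tet2 (-0.16, SE 0.13) and Tet3 (0.01, SE 0.13) did not pass in either direction. These p-values do not show that the levels were the same.

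**Figure D4:**
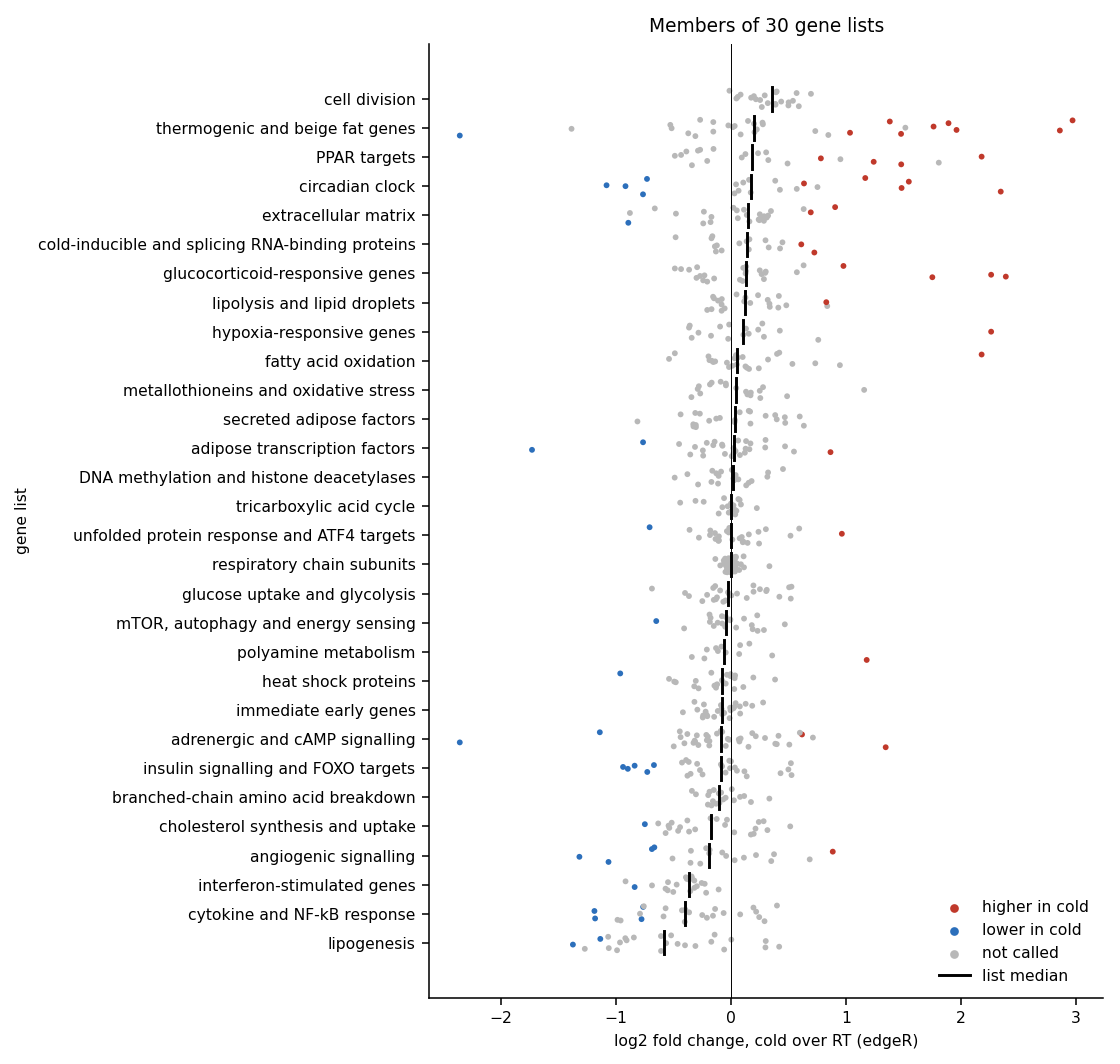
Log2 fold change of cold over RT (x axis) of each tested member of 30 gene lists (rows), in red where called higher, in blue where called lower and in grey otherwise, with a black bar at the median of the list. The lists run from cell division, with a median of 0.35 and no call, to lipogenesis, with a median of -0.59 and 2 calls.

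Some lymphocyte transcripts were higher in cold. All 7 T cell markers and all 7 B cell markers had positive changes, with medians of 0.85 and 1.08, but none was called. Their summed levels were 15.7 to 35.1 CPM in cold mice and 8.54 to 20.8 CPM at RT for T cells and 28.8 to 72.7 CPM in cold mice and 5.41 to 38.8 CPM at RT for B cells, with overlap, and the defining markers Lck, Cd4, Cd79a and Cd22 had log2 fold changes of 0.65, 0.41, 1.08 and 1.15. Beyond the lists, and chosen after their values were seen, the lymphocyte genes Il7r at 6.05, 8.08, 4.19, 5.72 and 5.74 CPM in cold mice, against 3.48, 1.57, 2.40 and 2.50 CPM at RT (log2 fold change 1.25, SE 0.26, adjusted p = 0.0230), Btla (1.53), Themis (1.61), Ctla4 (1.26) and Klrd1 (0.92) were called higher. Ctla4 overlapped between the groups (adjusted p = 0.0455), with 1.51 CPM in the lowest cold mouse and 1.66 CPM in the highest RT mouse. Whether these 5 calls hold with a mouse left out was not examined. Of 6 dendritic cell markers 1 rose, Flt3, with 2.06 ± 0.315 CPM in cold mice and 1.12 ± 0.287 CPM at RT (log2 fold change 0.87, SE 0.23, adjusted p = 0.0481). The Flt3 call was lost without any one of mice 1773, 1783, 1812, 1781, 1782, 1810, 1786 or 1814 (adjusted p up to 0.147). The 6 dendritic cell markers, Flt3 among them, summed to 29.3 to 41.2 CPM in cold mice and 17.2 to 27.5 CPM at RT, without overlap, and their part in the Flt3 call was not tested. Of 10 fibroblast and progenitor markers 1 rose, Pdgfra, with 256 ± 45.5 CPM in cold mice and 147 ± 19.1 CPM at RT. For Pdgfra the log2 fold change was 0.80, with SE 0.15 and adjusted p = 0.0141. Erythroid transcripts were uneven, summing to 268 to 1606 CPM in cold mice and 344 to 702 CPM at RT, with Hba-a1 (0.96) and Hbb-bs (0.95) not called. Neutrophil (Mmp9 -0.08, Csf3r -0.34), macrophage (C1qa 0.06, C1qb 0.11), mast cell (Kit -0.18, Cpa3 0.20), mural (Acta2 0.12, Rgs5 0.19), mammary epithelial (Krt8 0.32, Krt18 0.30), skeletal muscle (Acta1 1.18, Myl1 -0.30) and nerve sheath (Mbp 0.02) markers had no call, and neither had those of adipocytes (Fabp4 0.48), all as log2 fold changes. Some of these missing calls depended on mouse 1781: without it Acta1, Fabp4, Hba-a1 and Hbb-bs were called higher. Acta1 was also called higher without both mice 1781 and 1786 (log2 fold change 1.62). The part of cell composition in the changes described above was not tested.

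The cold effect was also estimated separately in each genotype. Over all 16745 tested genes, the log2 fold changes of KO and WT mice had a Pearson r of 0.11 and a Spearman rho of 0.50, a description across genes, which are not independent. All 276 genes called higher had positive and all 305 called lower had negative log2 fold changes in the KO mice and in the WT mice when these were estimated separately, a direction that the pooled call largely sets. The median over the genes called higher was 0.98 in KO and 0.93 in WT, and over the genes called lower -0.88 in KO and -0.81 in WT. At Ucp1 the estimates were 1.52 in KO (SE 0.62) and 4.32 in WT (SE 0.68), and at Adrb3 -2.54 (SE 0.18) and -2.21 (SE 0.15). The difference of the cold effect between KO and WT was tested for every gene with a genotype by housing term in edgeR, and 0 of 16745 genes (0%) passed an adjusted p under 0.05, the lowest adjusted p being 0.9999. At an unadjusted p under 0.05 there were 458 genes, 2.74% of those tested. That is a smaller share than a threshold of 0.05 passes by chance when no gene differs. DESeq2 called 9 genes at an adjusted p under 0.05. The unadjusted p of the difference was 0.0106 at Ucp1, 0.143 at Dio2, 0.00220 at Per2 and 0.179 at Adrb3. With 2 or 3 mice a group these tests do not show that the genotypes responded alike.

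**Figure D5:**
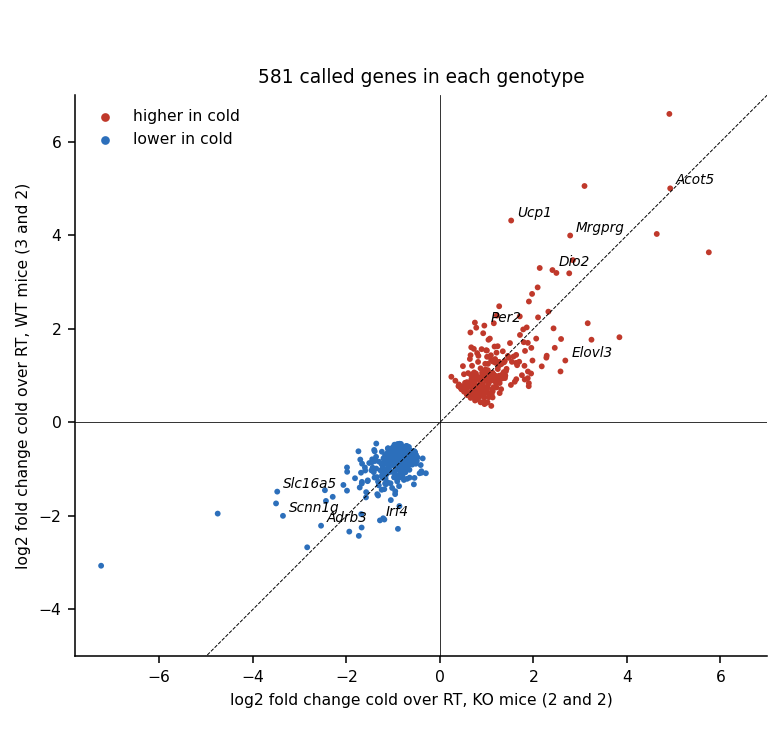
Log2 fold change of cold over RT of the 581 called genes in the KO mice (x axis, 2 cold and 2 RT) against that in the WT mice (y axis, 3 cold and 2 RT), red for genes called higher and blue for genes called lower in the pooled fit, with a dashed line of equality. All points lie at the lower left or the upper right, and Ucp1 lies above the line at 1.52 in KO and 4.32 in WT.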

How the data were processed

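RNA from inguinal fat of 9 mice was sequenced on the BGISEQ after library preparation with a BGI kit. The authors aligned reads to mm10 with STAR, kept reads mapping to 1 place, discarded mitochondrial reads and assigned the rest to genes with featureCounts. The deposited raw counts were used as they stand, 47605902 to 56292251 per library. The versions, annotation and strand setting were not stated there. The 9 deposited RPKM columns were not used. Housing was read from the column names.

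Of 24539 genes in the table, 7794 with low counts (4210 of them at 0 in every library) were removed by filterByExpr. The remaining 16745 were fitted in edgeR 4.0.16 (R 4.3.3; TMM, robust glmQLFit, glmQLFTest) with genotype and housing as terms. CPM are TMM-normalised and the SE was derived from the F statistic. Calls needed a Benjamini-Hochberg adjusted p under 0.05 over all tested genes and a fold above 1.5. A fit of 4 groups gave the cold effect per genotype and its difference, called at the adjusted p alone. Alternatives were DESeq2 1.42.0, its size factors, library totals, no filter, no genotype term, averaged group means, no robust estimation, each mouse left out, housing by titles, both disputed mice left out, and each genotype alone. The procedure was tested on simulated data. As the labels do not say more of how the mice were raised, p-values measure the spread between these mice.

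Named genes were up to 15 per direction of lowest p, up to 10 of largest change with a mean of at least 1 CPM, from each of 30 pathway and 15 marker lists up to 4 called members or, with none, 2 of highest level, and 8 genes of interest. Results of some genes are not reported here. Any other gene named in the text was chosen after its values were seen. The calls of those other genes were not followed gene by gene through the fits without 1 mouse, so a call with no loss stated is not shown to be stable. Genes and lists were chosen with earlier results of these data known. Positions came from GENCODE vM21 by symbol, and promoters from RefSeq (GRCm38.p6), for 12588 tested genes. Sets of genes with identical counts (62 tested genes in 30 sets, 4 of them called, Amd1, Amd2, Gvin1 and Gm4070) are 1 measurement each. Figures were drawn with Python 3.11.15 and matplotlib 3.10.9.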

Additional observations from a re-analysis of the deposited data

Results flagged for a closer look

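Within each housing group, the named genes were searched for 1 mouse standing far from the rest by Dixon's test at the 95% level, which chance passes in about 1 of 20 groups. Of 262 groups of values, 20 (7.63%) passed. The mice concerned were spread over the cold and RT groups, and the explanation of each was not tested.

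Of the genes with a cold call, cold mouse 1782 stood apart for Mthfd1l (7.06 CPM, the other cold mice 9.25 to 10.1) and for Adcy3 (244 CPM, the others 72.4 to 117), and cold mouse 1781 for Mrgprg (18.9 CPM, the others 1.53 to 6.28). Cold mouse 1812 was highest for Angpt1 (19.3 CPM, the others 13.4 to 14.7), Rbm3 (142 CPM, the others 119 to 123) and Cyp4b1 (149 CPM, the others 93.6 to 108). Cold mouse 1783 was highest for Slc16a5 (2.07 CPM, the others 0.538 to 0.852), and cold mouse 1773 for Cxcl10 (121 CPM, the others 55.3 to 61.3) and Cxcl1 (181 CPM, the others 96.9 to 116). At RT, mouse 1788 was highest for Pkig (33.0 CPM, the others 27.3 to 28.2), mouse 1814 for Timp3 (675 CPM, the others 512 to 529), and mouse 1786 lowest for Id1 (20.9 CPM, the others 27.8 to 27.99).

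Of the genes without a call, cold mouse 1783 was highest for the B cell markers Cd22 (15.4 CPM, the others 7.08 to 8.96) and Cd79a (20.9 CPM, the others 7.28 to 10.4), cold mouse 1773 for the neutrophil marker Csf3r (4.33 CPM, the others 2.86 to 3.18), cold mouse 1812 for Pecam1 (505 CPM, the others 339 to 370) and cold mouse 1781, a KO mouse, for Tet1 (10.2 CPM, the others 3.87 to 5.33). At RT, mouse 1786 was lowest for Krt18 (452 CPM, the others 660 to 672) and Hdac1 (90.6 CPM, the others 102 to 103), and mouse 1814 highest for Hibadh (252 CPM, the others 234 to 237).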

How the results depend on the processing

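The number of called genes depended on the test and on who was in it. None of the 88 called named genes reversed its sign under any alternative. Those genes were picked by the pooled fit and every alternative reuses its libraries, so the kept signs largely follow from the choice. DESeq2 called 431 genes higher and 480 lower, and without the fold limit edgeR called 606 and 603. With housing by the titles edgeR called 0 and 0. All 581 genes kept their sign there, in a fit where only the disputed mice changed their label. The 5 WT mice alone gave 61 higher and 43 lower, of which 51 and 37 were called in the pooled fit too, and the 4 KO mice alone gave 0 and 0 (1007 and 869 at an unadjusted p under 0.05), with fewer mice in the fit. Leaving out 1 mouse at a time gave 165 to 303 genes higher and 132 to 303 lower. For the difference between genotypes DESeq2 called 9 genes, and leaving out 1 mouse gave 0 to 1 in edgeR. Of the 88 called named genes, 61 were called in all 9 fits without 1 mouse, 73 without both disputed mice, 40 in WT alone, 0 in KO alone and 88 by DESeq2. The cause of these differences was not tested.

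Reversals concerned named genes without a call, as log2 fold changes. With housing by the titles, Myl1 was at 0.11, Kit at 0.0373, Cfd at 0.0364, Cpa3 at -0.34, C1qb at -0.35, Aldh6a1 at 0.22, Gpx3 at -0.0564, Cidea at -0.22, Tet1 at 0.0855, Hibadh at 0.13, C1qa at -0.47, Atp5b at 0.0592, Mbp at -0.26 and Cdh5 at -0.019. With both disputed mice left out, Cpa3 was at -0.0885, C1qb at -0.16, Aldh6a1 at 0.0336, Cidea at -0.0836, Hibadh at 0.0381, C1qa at -0.27, Atp5b at 0.0116, Mbp at -0.16 and Cdh5 at -0.0041. In WT mice alone, Cpa3 was at -0.16, C1qb at -0.0958, Gpx3 at -0.11, Cidea at -0.0873, Tet1 at 0.0448, C1qa at -0.21, Mbp at -0.24 and Atp5a1 at -0.0546. In KO mice alone, Mki67 was at -0.31, Mmp9 at 0.78, Pnpla2 at -0.0863, Cdh5 at -0.0271 and Tet3 at -0.11. With 4 group means averaged, Mmp9 was at 0.0132 and Tet3 at -0.00274. With DESeq2 size factors in edgeR, Tet3 was at -0.00016 and Atp5a1 at -0.00446. With DESeq2 Wald test, Tet3 was at -0.000146 and Atp5a1 at -0.00446. With housing alone, no genotype term, Tet3 was at -0.019 and Atp5a1 at -0.0192. With library totals alone, Atp5a1 was at -0.00141. Over the fits without 1 mouse, the log2 fold changes ran from -0.42 to 0.0591 for Aldh6a1, -0.16 to 0.045 for Aldoa, -0.13 to 0.0893 for Atp5a1, -0.16 to 0.0711 for Atp5b, -0.17 to 0.23 for C1qa, -0.0857 to 0.21 for C1qb, -0.0298 to 0.49 for Cat, -0.12 to 0.11 for Cdh5, -0.0932 to 0.22 for Cidea, -0.0273 to 0.51 for Cpa3, -0.16 to 0.0884 for Gapdh, -0.0644 to 0.35 for Gpx3, -0.23 to 0.082 for Hibadh, -0.18 to 0.12 for Mbp, -0.00974 to 0.70 for Mki67, -0.39 to 0.19 for Mmp9, -0.17 to 0.24 for Pnpla2, -0.25 to 0.16 for Tet1 and -0.0516 to 0.11 for Tet3. No paired analysis was possible because the groups compared share no replicate numbers.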
